A study of Mus musculus with 6 samples.

Results

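The developmental homeobox genes are transcription factors that lay out the body axis and the organs of the embryo. Here they were taken by name alone, as the genes of the Hoxa, Hoxb, Hoxc, Hoxd, Pax, Lhx, Nkx, Dlx, Irx, sine oculis (Six4, Six5 and relatives), Msx and Meis families, with the family name followed by a number. 18 of the 12626 genes analysed carry such a name, and they come from 9 of the 12 families. RefSeq lists 108 mouse genes with names of this form, 94 of them protein-coding. All 18 genes here are protein-coding, and none is an antisense or opposite-strand transcript. The Hox families gave 8 genes of the 43 names in RefSeq, Meis gave 3, Nkx gave 2, and Irx and Lhx gave 1 each. The Pax, Dlx and Msx genes and all other members of these families were not analysed here.

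RNA was sequenced from wild-type J1 cells, a mouse embryonic stem (ES) cell line, at 3 times of a change of medium. At D0 the cells were in serum medium, which is Glasgow medium with fetal bovine serum and leukemia inhibitory factor (LIF). At D6 and D13 they had spent that many days in 2i+vitC, a medium with LIF, the Gsk3 inhibitor CT-99021, the MEK inhibitor PD0325901 and vitamin C, which is known to lower DNA methylation in ES cells. Each day had 2 replicates, for 6 samples in all, and all samples share the same wild-type line. D0 differs from the later days in both medium and time, so that these cannot be told apart, and no serum sample of D6 or D13 was analysed here. D6 and D13 share the 2i+vitC medium and differ in time. The study calls its RNA-seq replicates biological. Whether they came from separate cultures is not given in the sources used here, and p-values then measure only the spread between these samples.

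Hox genes lie in 4 clusters, HoxA to HoxD, and are named by their order along the cluster, with high numbers for the genes that act toward the tail end of the embryo. Meis proteins bind DNA together with Hox and Pbx proteins, while sine oculis, Irx, Lhx and Nkx factors act mainly in sense organs, muscle, brain and neural tube. In ES cells most of these genes are silent and carry Polycomb marks on promoters rich in CpG, the dinucleotide that DNA methylation targets.

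Levels are log2 CPM, the log2 of a read count scaled to library size, as deposited, in which 0 stands for 1 CPM. The number of reads behind each value could be read off the values, and the samples held 73230745 to 83688345 reads on genes, so that 3 reads correspond to at most 0.042 CPM. Every gene analysed reached 0.991 CPM or more in at least 3 of the 6 samples. A gene that was high on a single day could therefore not be among them. A gene low in both D0 samples could pass only if at least 3 of the 4 samples in 2i+vitC reached about 1 CPM, which holds for Hoxb13, Hoxc4, Hoxc12, Hoxd9 and Lhx2. These 5 genes were under 1 CPM in both D0 samples and had to differ between serum and 2i+vitC, so that their number is a property of the table and not a result.

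From serum to D6, 7 of the 18 genes rose and 0 fell: Hoxb13, Hoxc4, Hoxc12, Hoxc13, Hoxd9, Lhx2 and Meis2. A call needed a difference above 4-fold and a limma adjusted p below 0.05, with the fit and the adjustment running over all genes and transposon families. By the same rule 5.91% of all genes rose and 3.9% fell. From serum to D13 the same 7 genes and Irx2 rose, and Meis3 fell, beside 7.45% of all genes that rose and 6.01% that fell. Hoxb13, Hoxc4, Hoxc12, Hoxd9 and Lhx2 had to be higher in 2i+vitC to be analysed, so that the rises cannot be read against these shares. A gene at about 1 CPM in the serum samples alone could not be analysed either, so that such falls are missing from these counts. From D6 to D13, 0 of the 18 genes were called in limma in either direction, and 0 with voom precision weights. By the rule of a call, 0.388% of all genes rose and 0.697% fell in that step. An unadjusted limma p under 0.05 was reached by 3 of the 18 genes, beside 3156 of all 12626. In such bulk samples, more cells that express a gene and more RNA per cell cannot be told apart. Of the 13 genes that reached 1 CPM in a D0 sample, 2 rose by D6 (Hoxc13 and Meis2), and 3 rose and 1 fell by D13. Hoxb9, Hoxc13 and Hoxd13 reached it in 1 D0 sample only, and needed samples in 2i+vitC at about 1 CPM as well.

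**Figure D1:**
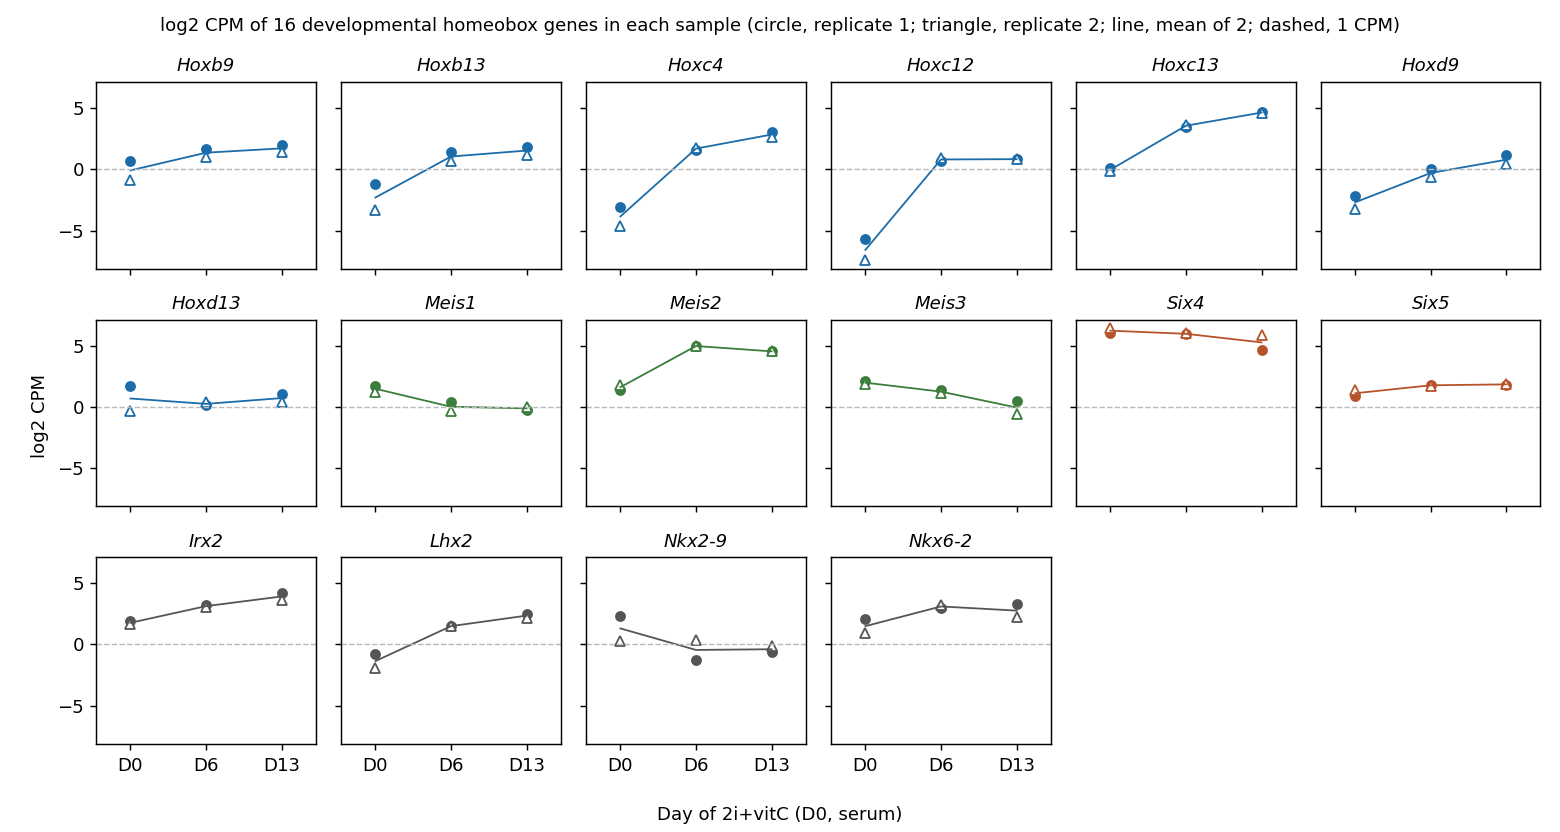
Log2 CPM (vertical axis) of 16 of the 18 genes on each day (horizontal axis), 1 panel a gene, with circles for replicate 1, triangles for replicate 2, a line through the mean of 2 and a dashed line at 1 CPM. Blue panels are Hox, green Meis, orange sine oculis and grey the other families. The largest steps lie between D0 and D6, as in Hoxc12 with a mean of -6.58 at D0 and 0.81 at D6.

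Promoter windows were available for 12 of the 18 genes, as 300 bases from 250 before to 50 after a RefSeq transcript start on GRCm38.p6. The 14 windows of these genes held 9 to 37 CpG dinucleotides, with a median of 18.5, against a median of 7 over 32851 windows of this kind. All 14 had more than that median, which 48.6% of all windows exceed. Windows of Hoxb9, Hoxb13, Hoxc12 and Hoxc13 were not analysed here. The 5 windows printed here belong to the 3 Meis genes, which differ in their course, and to Hoxc4 and Lhx2, which went from under 1 CPM at D0 to a mean above it at D6. They run from 5′ to 3′ on the strand of the gene, and capitals mark CpG. The Hoxc4 window, with 9 CpG the lowest of the 14, lies inside the annotated gene, as do those of Meis2 and Meis3. The Lhx2 window held 34 CpG. The windows of Meis1, Meis2 and Meis3 held 15, 13 and 21.
Hoxc4, chr15:103034145-103034444, plus strand: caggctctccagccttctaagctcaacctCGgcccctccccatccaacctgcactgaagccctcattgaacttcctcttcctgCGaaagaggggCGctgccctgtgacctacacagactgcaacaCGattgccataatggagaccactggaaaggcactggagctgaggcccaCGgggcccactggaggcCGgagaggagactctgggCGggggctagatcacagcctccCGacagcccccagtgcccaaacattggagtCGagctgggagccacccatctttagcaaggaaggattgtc
Lhx2, chr2:38339031-38339330, plus strand: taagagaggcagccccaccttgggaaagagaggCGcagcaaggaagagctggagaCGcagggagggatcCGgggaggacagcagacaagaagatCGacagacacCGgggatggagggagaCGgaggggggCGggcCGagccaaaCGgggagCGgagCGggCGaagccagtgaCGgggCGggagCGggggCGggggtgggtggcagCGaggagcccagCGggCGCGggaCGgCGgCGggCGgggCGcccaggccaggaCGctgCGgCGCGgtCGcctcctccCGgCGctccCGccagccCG
Meis1, chr11:19018920-19019219, minus strand: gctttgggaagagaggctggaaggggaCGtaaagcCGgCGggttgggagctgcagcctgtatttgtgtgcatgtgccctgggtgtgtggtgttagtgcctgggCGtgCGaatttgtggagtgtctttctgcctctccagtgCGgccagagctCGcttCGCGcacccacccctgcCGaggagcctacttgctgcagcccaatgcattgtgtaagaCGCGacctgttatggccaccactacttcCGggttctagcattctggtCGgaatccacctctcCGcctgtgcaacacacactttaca
Meis2, chr2:116064570-116064869, minus strand: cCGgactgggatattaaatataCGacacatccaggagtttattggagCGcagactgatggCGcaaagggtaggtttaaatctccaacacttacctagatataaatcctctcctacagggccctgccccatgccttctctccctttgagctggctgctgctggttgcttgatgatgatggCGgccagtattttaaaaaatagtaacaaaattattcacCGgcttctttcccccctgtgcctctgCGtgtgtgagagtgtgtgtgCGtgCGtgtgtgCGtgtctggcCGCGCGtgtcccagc
Meis3, chr7:16175145-16175444, plus strand: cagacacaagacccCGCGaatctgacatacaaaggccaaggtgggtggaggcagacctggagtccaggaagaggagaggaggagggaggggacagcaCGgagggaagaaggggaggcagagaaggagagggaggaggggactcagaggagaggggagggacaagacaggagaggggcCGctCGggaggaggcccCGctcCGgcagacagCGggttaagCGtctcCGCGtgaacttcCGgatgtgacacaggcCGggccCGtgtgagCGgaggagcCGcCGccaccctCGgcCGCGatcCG

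**Figure D2:**
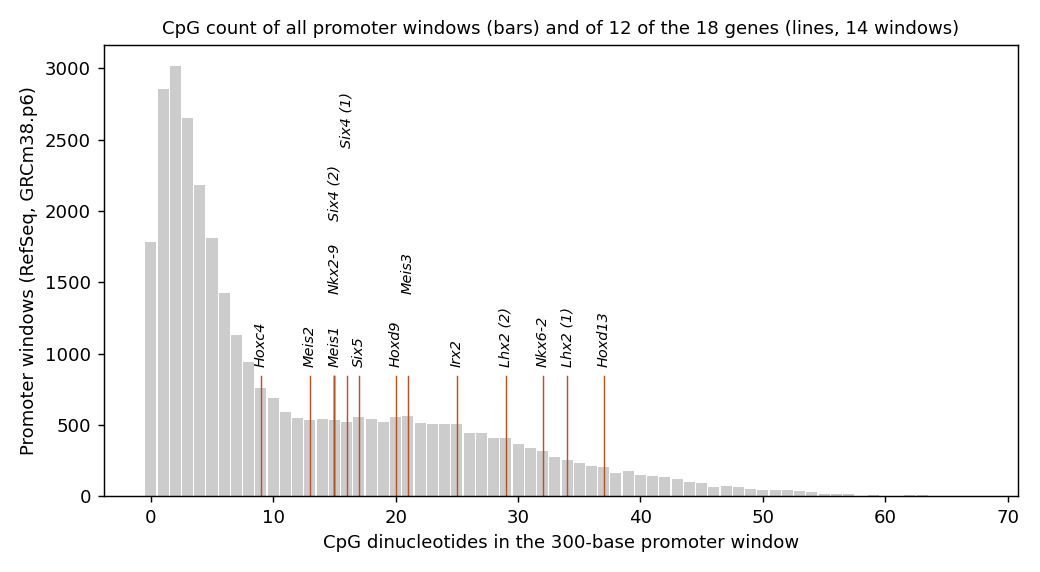
Number of promoter windows (vertical axis) by their count of CpG dinucleotides (horizontal axis), with bars for all 32851 windows and lines at the 14 windows of 12 of the 18 genes, where (1) and (2) mark 2 starts of a gene. The lines run from 9 in Hoxc4 to 37 in Hoxd13, all above the median of 7.

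Of the 8 Hox genes, all had a higher mean at D13 than at D0, as had 6268 of the 12626 genes, and 5 rose, beside 7.45% of all genes. For Hoxb13, Hoxc4, Hoxc12 and Hoxd9, 4 of these 5, the direction was fixed by the need to reach about 1 CPM in 2i+vitC, so that nothing is read from these counts. In the HoxC cluster Hoxc13, Hoxc12 and Hoxc4 were each called from D0 to D6 and from D0 to D13. Hoxc13, at chr15:102921103-102928814 on GRCm38 as in GENCODE vM21, is the last gene of the HoxC cluster and is known for its role in hair and nails. Its log2 CPM was 0.12 and -0.17 in serum, 3.48 and 3.67 after 6 days of 2i+vitC, and 4.72 and 4.58 after 13 days, in replicates 1 and 2. The 3 days did not overlap, with each later day above the earlier. The log2 fold change against serum was 3.60 ± 0.29 (SE) by D6 (limma adjusted p = 8.5e-05) and 4.68 by D13 (adjusted p = 2.0e-05). From D6 to D13 the difference was 1.08 ± 0.29, with an adjusted p of 0.071 that missed the threshold.

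Hoxc4, at chr15:103018934-103036852, is the most anterior HoxC gene. Its reads numbered 9 and 3 in serum, 241 and 293 on day 6, and 583 and 478 on day 13. On the log2 CPM scale this was -3.05 and -4.64, then 1.62 and 1.79, then 3.03 and 2.67. Again the days did not overlap, and the gene went from nearly no reads in serum to above 1 CPM in every 2i+vitC sample. Against serum, the log2 fold change by D6 was 5.55 ± 0.57 (limma adjusted p = 0.00024), and by D13 it was 6.70 (adjusted p = 6.9e-05). The later step alone gave 1.15 (adjusted p = 0.25). Without D0 replicate 2 the D0 to D6 value was 4.75, and without D0 replicate 1 it was 6.34. Hoxc12, at chr15:102936757-102938609, had 1 and 0 reads in serum, 124 and 166 on day 6, and 128 and 133 on day 13. It was thus close to absent in serum and level between D6 and D13. Against the 1 read at D0, the level was 294 times higher at D6, with an exact 95% interval of 52.3 to 11600 that covers counting error only, and 296 times higher at D13 (52.6 to 11700). The fitted log2 fold change by D6, 7.40 ± 0.71 (limma adjusted p = 0.00017), depends on the 0.5 reads that voom adds and is no bound. It ran from 6.53 to 8.26 when single samples were left out, and was 0.02 from D6 to D13 (adjusted p = 0.99). For Hoxc4 and Hoxc12 the direction against serum was fixed by the table, so that these tests do not bear on it. The gap between Hoxc13 and Hoxc12 is 7.94 kb, and Hoxc4 lies 80.3 kb beyond Hoxc12.

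In the HoxB cluster Hoxb13 rose and Hoxb9 had an intermediate course. Hoxb13, at chr11:96194316-96197447, is the last gene of its cluster and acts in the tail end and the prostate. The serum samples had a log2 CPM of -1.23 and -3.36, the D6 samples 1.44 and 0.67, and the D13 samples 1.87 and 1.22. Both D0 samples lay below all 2i+vitC samples, with 33 reads in D0 replicate 1 and 8 in D0 replicate 2. This gave a log2 fold change of 3.35 ± 0.70 by D6 (limma adjusted p = 0.0090) and of 3.84 by D13 (adjusted p = 0.0030). Without D0 replicate 2 the D0 to D6 value was 2.29 and without D0 replicate 1 it was 4.41. The direction for Hoxb13 was fixed by the table, so that neither the calls nor these values test it. Hoxb9, at chr11:96271457-96276595, patterns the trunk. The serum samples had a log2 CPM of 0.72 and -0.88, the D6 samples 1.69 and 1.04, and the D13 samples 2.02 and 1.42. D0 did not overlap with D6 or D13, while D6 and D13 overlapped. On the log2 scale the difference from serum was 1.45 ± 0.57 by D6 (limma adjusted p = 0.10) and 1.80 by D13 (adjusted p = 0.032), in both cases under 4-fold. Without D0 replicate 1, the sample with the higher level, these were 2.25 and 2.60 and the gene was called.

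In the HoxD cluster Hoxd9 rose and Hoxd13 did not pass the test. Hoxd9, at chr2:74697727-74700208, had 17 and 9 reads in serum, 82 and 54 on day 6, and 162 and 99 on day 13. Its log2 CPM was -2.17 and -3.20, then 0.07 and -0.64, then 1.18 and 0.41. Each day lay above the one before it without overlap. Against serum, the log2 fold change by D6 was 2.40 ± 0.60 (limma adjusted p = 0.020), and by D13 it was 3.48 (adjusted p = 0.0022). Between D6 and D13 it was 1.08 (adjusted p = 0.30). That Hoxd9 lay above serum was fixed by the table, so that the tests against serum do not bear on its direction. The D0 to D6 call was lost without D0 replicate 2, at 1.88, and without D6 replicate 1, at 2.04 with an adjusted p of 0.18. Hoxd13, at chr2:74668310-74671599, shapes digits and genitalia. In serum its log2 CPM was 1.72 and -0.35, with 0.13 and 0.36 after 6 days and 1.05 and 0.39 after 13 days. The D0 replicates enclosed all other samples, with 260 reads in replicate 1 and 68 in replicate 2. By D6 the log2 fold change was -0.44 ± 0.66 (limma adjusted p = 0.69), and by D13 it was 0.04 (adjusted p = 0.97). It ran from -1.48 to 0.60 from D0 to D6 when single samples were left out, so that its direction rests on D0 replicate 1.

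The 3 Meis genes went separate ways. Meis2, at chr2:115863064-116065839, acts in limb, heart and neural crest. In serum its log2 CPM was 1.42 and 1.81, with 4.97 and 4.99 after 6 days and 4.55 and 4.54 after 13 days. It was highest at D6 in both replicates, and no days overlapped. This gave a log2 fold change of 3.37 ± 0.26 by D6 (limma adjusted p = 7.2e-05) and of 2.93 by D13 (adjusted p = 8.7e-05), while the difference from D6 to D13 of -0.44 missed the threshold (adjusted p = 0.34). Meis3, at chr7:16175090-16186504, acts in the hindbrain. Its log2 CPM was 2.13 and 1.84 in serum, 1.37 and 1.13 after 6 days of 2i+vitC, and 0.45 and -0.54 after 13 days. Each day lay below the one before it without overlap. The log2 fold change from serum was -0.73 ± 0.44 at D6 (limma adjusted p = 0.28) and -2.03 at D13 (adjusted p = 0.0066). The later step alone gave -1.30 (adjusted p = 0.12). The fall by D13 was barely past 4-fold, and it was -1.88 without D0 replicate 1 and -1.54 without D13 replicate 2, each under the fold minimum.

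Meis1, at chr11:18879817-19018985, acts in blood stem cells and the eye. Its exons overlap 2 other annotated genes, Gm37818 on the same strand and Gm16140 on the other. The strand setting of the counting is not given in the sources used here, so that reads of overlapping genes may not be separated. The serum samples had a log2 CPM of 1.72 and 1.25, the D6 samples 0.38 and -0.36, and the D13 samples -0.24 and 0.01. Both D0 samples lay above all others, and D6 and D13 overlapped. On the log2 scale the difference from serum was -1.48 ± 0.45 by D6 (limma adjusted p = 0.045) and -1.60 by D13 (adjusted p = 0.021), past the p threshold and short of 4-fold. Per kb of merged exons, Meis3 was the highest of the 3 Meis genes in serum, with a mean of 1.25 CPM. Meis1 and Meis2 were at 0.27 and 0.257 CPM per kb. At D13 Meis2 was the highest, at 1.94, while Meis1 and Meis3 were at 0.0879 and 0.323.

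The sine oculis genes Six4 and Six5 were not called in any comparison. Six4, at chr12:73099609-73113456, acts in muscle precursors. The log2 CPM of the replicates was 6.05 and 6.43 in serum, 5.94 and 6.02 on day 6, and 4.65 and 5.91 on day 13. The days did not overlap, but most of the D13 difference came from replicate 1. Against serum, the log2 fold change by D6 was -0.26 ± 0.37 (limma adjusted p = 0.68), and by D13 it was -0.96 (adjusted p = 0.068), and the latter was -0.33 without D13 replicate 1. Six5, at chr7:19094594-19098549, lies beside the gene of myotonic dystrophy. Its log2 CPM was 0.88 and 1.36 in serum, 1.81 and 1.73 after 6 days of 2i+vitC, and 1.81 and 1.88 after 13 days. The D0 samples were the lowest of the 6. This gave a log2 fold change of 0.65 ± 0.35 by D6 (limma adjusted p = 0.23) and of 0.72 by D13 (adjusted p = 0.13).

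Irx2 and Lhx2 rose. Lhx2, at chr2:38339281-38369733, is a LIM homeobox gene needed for eye and forebrain. The serum samples had a log2 CPM of -0.76 and -1.96, the D6 samples 1.50 and 1.49, and the D13 samples 2.51 and 2.20. Each day lay above the one before it. Against serum, the log2 fold change by D6 was 2.86 ± 0.48 (limma adjusted p = 0.0028), and by D13 it was 3.72 (adjusted p = 0.00050). Between D6 and D13 it was 0.86 (adjusted p = 0.31). The D0 to D6 value was 2.26 or 3.45 when 1 D0 sample was left out. For Lhx2 a level in 2i+vitC above serum was fixed by the table, so that these results do not test its direction. Irx2, at chr13:72628820-72634198, is an Iroquois gene that acts in neural tube and heart. In serum its log2 CPM was 1.88 and 1.66, with 3.21 and 3.06 after 6 days and 4.23 and 3.62 after 13 days. Its days did not overlap and each was higher than the last. By D6 the log2 fold change was 1.36 ± 0.31 (limma adjusted p = 0.014), under 4-fold, and by D13 it was 2.15 (adjusted p = 0.00094). Without D13 replicate 1 the latter was 1.85 and no longer past 4-fold.

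Neither Nkx gene was called, and both had replicates that lay far apart. Nkx6-2, at chr7:139579376-139582797, acts in oligodendrocytes and the ventral neural tube, and its exons overlap those of Inpp5a on the other strand. The log2 CPM of the replicates was 2.07 and 0.92 in serum, 3.00 and 3.21 on day 6, and 3.32 and 2.22 on day 13. The D0 samples were the lowest, and D6 and D13 overlapped. On the log2 scale the difference from serum was 1.61 ± 0.48 by D6 (limma adjusted p = 0.041) and 1.27 by D13 (adjusted p = 0.062). Without D0 replicate 1 the D0 to D6 value was 2.19 and the gene was called. Nkx2-9, at chr12:56611389-56613284, acts in the floor of the neural tube. Its log2 CPM was 2.33 and 0.29 in serum, -1.23 and 0.34 after 6 days of 2i+vitC, and -0.65 and -0.13 after 13 days. D0 replicate 1 stood above the other 5 samples, and D0 and D6 overlapped. By D6 the log2 fold change was -1.76 ± 0.76 (limma adjusted p = 0.13), and by D13 it was -1.70 (adjusted p = 0.10). Without D0 replicate 2 these were -2.78 and -2.72 and the gene was called lower.

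**Figure D3:**
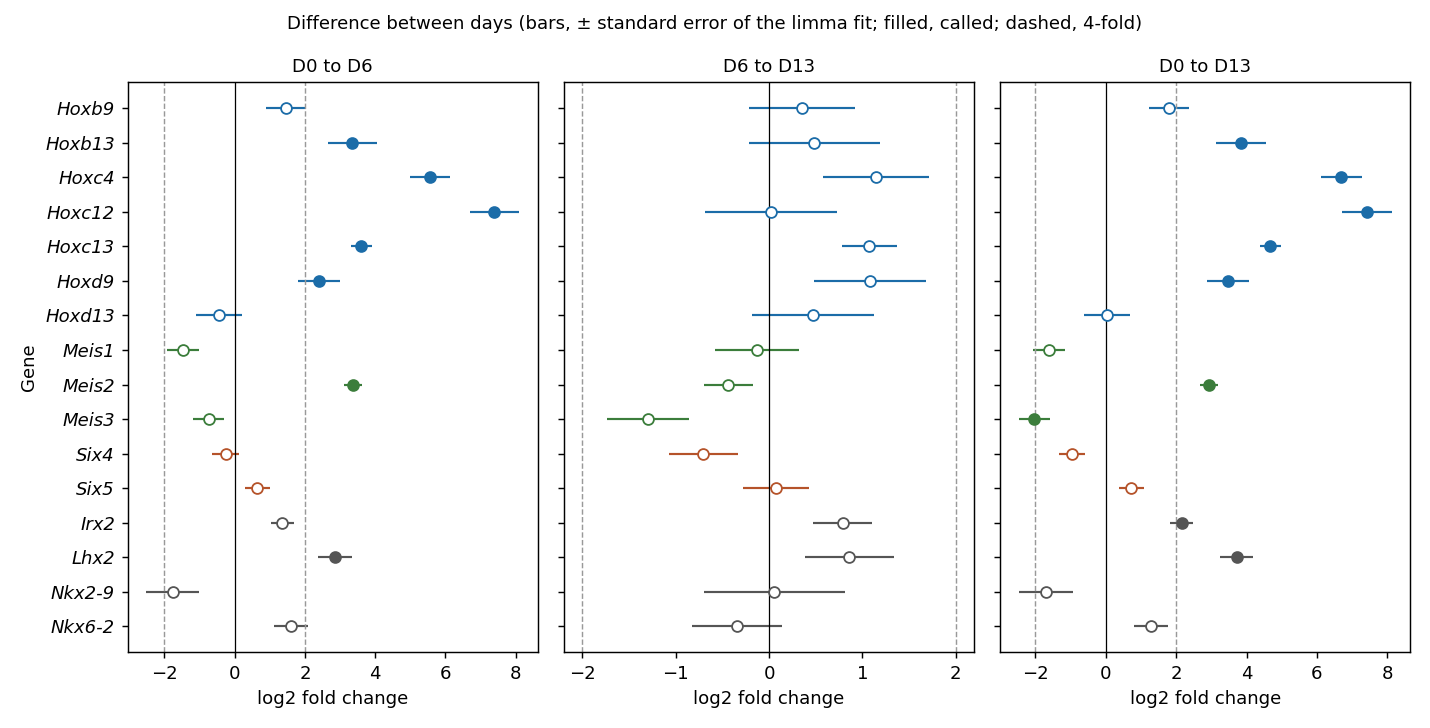
Log2 fold change (horizontal axis) of 16 of the 18 genes (vertical axis) in 3 comparisons of days, with bars for ± 1 SE of the limma fit, filled points for called genes and dashed lines at 4-fold. The middle panel has a narrower axis. From D0 to D13 filled points lie to the right in 8 genes, up to 7.42 in Hoxc12, and to the left in Meis3 alone, at -2.03.

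The families were compared by their counts and medians, without a test between them, since genes of a cluster are neighbours and share samples. For the 8 Hox genes the median log2 fold change against serum was 2.87 by D6 and 3.66 by D13, and 0.48 in the later step alone. For the other 10 genes it was 0.20 by D6, -0.12 by D13 and -0.04 in the later step. Over all genes it was -0.01 in each of these comparisons. Hoxc13 is the Hox gene that rose from a level of 1 CPM or more in a D0 sample. Its D0 samples lay at 1.085 and 0.888 CPM, so that it too could be analysed only through 2i+vitC samples at about 1 CPM. Among the 3 Meis genes 1 rose, 1 fell by D13, and the median was -0.73 by D6 and -1.60 by D13. The Hox medians rest in part on the 4 Hox genes that had to be higher in 2i+vitC to be among the 12626, so that they cannot be read against the medians of the other genes.

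By the direction of their means, 9 of the 18 genes were higher at D6 than at D0 and higher again at D13. These were Hoxb13, Hoxb9, Hoxc12, Hoxc13, Hoxc4, Hoxd9, Irx2, Lhx2 and Six5. This course was taken by 28% of all genes. For Hoxb13, Hoxc12, Hoxc4, Hoxd9 and Lhx2 a level in 2i+vitC above that in serum was fixed by the table, so that the 9 cannot be read against this share. Meis1, Meis3 and Six4 had lower means at both steps, as had 29.9% of all genes. Meis2 and Nkx6-2 were highest at D6, and 4 genes, with Hoxd13 and Nkx2-9 among them, were lowest at D6. On the log2 scale, genes called higher by D6 had most of their D13 difference by then. It was 3.60 of 4.68 in Hoxc13, 5.55 of 6.70 in Hoxc4 and 2.86 of 3.72 in Lhx2. These genes were chosen for a large difference by D6, and both differences share the D0 samples, so that nothing is read from this. In CPM the means at D0, D6 and D13 were 0.99, 11.9 and 25.1 in Hoxc13. They were 0.08, 3.26 and 7.27 in Hoxc4, and 0.42, 2.82 and 5.16 in Lhx2. On that scale the later step was the larger in Hoxc13 and Hoxc4, and about equal in Lhx2.

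Levels were set between genes only per kb of merged exons, as CPM per kb. At D0 Six4 stood at 7.01 ± 1.31 (SD, n = 2) and Nkx2-9 at 2.47 ± 2.13, a spread that reaches most of the genes ranked after it. Hoxc12 was last, at 0.012. At D13 Hoxc13 led with 10.2 ± 0.67, above Irx2 at 4.73 ± 1.39, and had been at rank 11 in serum. Irx2, Six4 at 3.93 ± 2.29 and Nkx6-2 at 3.83 ± 1.96 lay within their spread of each other. Meis1 was last at D6 and D13, at 0.0988 and 0.0879. The median over the 18 genes was 0.579 in serum, 1.08 on day 6 and 1.33 on day 13, and 6 genes at D0 had a mean under 1 CPM against 2 at D6 and 2 at D13. Of these 6 genes, 5 were under 1 CPM in both D0 samples, and Hoxc13 reached it in 1 D0 sample only. All 6 could be analysed only because they reached about 1 CPM in samples of 2i+vitC. The fall in this number, and part of the rise of the median, is thus set by the table.

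Most of the 18 genes differed in the same direction between the 2 serum samples. At D0, 15 of the 18 genes were higher in replicate 1, with a median difference of 0.75 log2 units, and 9 of them by more than 1. Over all genes 45.4% were higher in D0 replicate 1, and among genes with a mean under 10 CPM 39.8%. At D6, 8 of the 18 were higher in replicate 1, and at D13 13 were. Hoxb13, Hoxd13 and Nkx2-9 differed by 2.13, 2.07 and 2.04 at D0, while Meis2, Six4 and Six5 were the genes higher in D0 replicate 2. Markers of other cells also differed between the D0 samples. Fibroblast markers summed to 146 CPM in replicate 1 and 50.3 in replicate 2, neural markers to 245 and 184, and mesoderm markers to 85.8 and 75.3. Primitive endoderm markers summed to 320 and 436, and ES cell markers to 2919 and 3755. Most of the fibroblast difference was Vim, which ES cells also express, at a log2 CPM of 6.74 and 4.73. Col1a1, Col1a2 and Thy1 were also higher in replicate 1, and Fbn1 was lower, at 3.26 and 3.76. By the methods of the study, J1 cells in serum were kept on gelatin without feeder cells, and cells in 2i on gelatin too. The part of other cells in the homeobox levels was not tested.

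**Figure D4:**
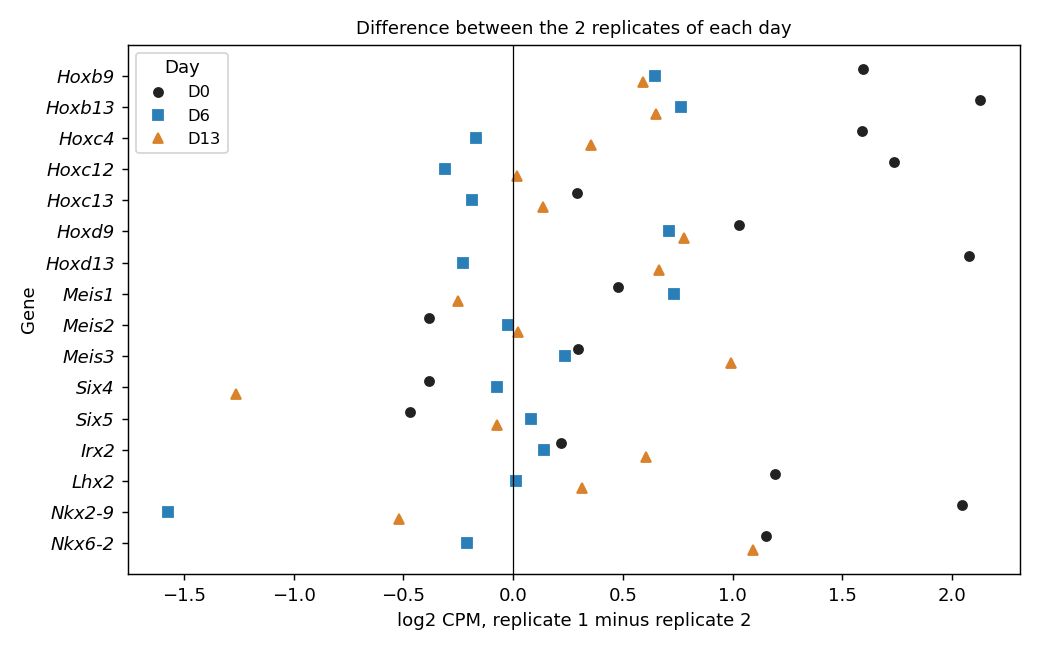
Log2 CPM of replicate 1 minus replicate 2 (horizontal axis) for 16 of the 18 genes (vertical axis), with black circles for D0, blue squares for D6 and orange triangles for D13. At D0, 13 circles lie right of 0, up to 2.13 in Hoxb13, while the D6 squares lie on both sides, with 8 to the right.

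Of the ES cell markers 10 of 10 were matched, and all 10 were at 1 CPM or more in all 6 samples. Their sum was 2919 to 3755 CPM at D0, 5033 to 5382 at D6 and 4470 to 4565 at D13. The ES cell markers did not move together. By D6 Tfcp2l1 and Nanog were called higher and Utf1 lower. By D13 Tfcp2l1 was called higher, and Utf1 and Dppa4 lower. Of the other lists, 7 of 11 primitive endoderm markers were matched, with a sum of 320 to 436 at D0, 102 to 129 at D6 and 120 to 153 at D13. For neural markers, 5 of 10 were matched, with 184 to 245, 113 to 132 and 101 to 107. For mesoderm, 3 of 9 were matched, with 75.3 to 85.8, 117 to 135 and 27.9 to 32.3. For fibroblasts, 5 of 9 were matched, with 50.3 to 146, 243 to 355 and 168 to 171. Of these Vim, a gene that ES cells also express, was called higher by D6. Fbn1 was called lower by D6 and by D13, and Col1a2 by D13. Against both serum samples, the neural and primitive endoderm sums were lower on both later days. Not every gene of these lists followed its sum. Sox1 of the neural list had higher means than in serum on both later days. So had Lama1, Pdgfra and Sox17 of the primitive endoderm list, and the other matched genes had lower means. The fibroblast sum was higher on both later days and followed Vim, with a mean log2 CPM of 5.74, 8.16 and 7.35 at D0, D6 and D13. Col1a1, Col1a2, Thy1 and Fbn1 had lower means than in serum on both later days. The mesoderm sum was higher at D6 and lower at D13, and followed Lefty2. By D6 the log2 fold change was 0.69 for Lefty2, 0.32 for Kdr and -0.17 for Eomes. The part of other cells in the homeobox changes was not tested.

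The partners and regulators of Hox genes were described from lists. All 8 Hox cofactors were matched. From D0 to D6 1 rose and 1 fell, beside 5.91% and 3.9% of all genes. From D0 to D13 1 rose and 0 fell, beside 7.45% and 6.01% of all genes. Pknox2, a relative of Meis, rose by 2.99 ± 0.31 on the log2 scale by D6 (limma adjusted p = 0.00026) and by 3.53 by D13 (adjusted p = 7.8e-05). The median of the cofactors was -0.38 by D6 and -0.57 by D13, and 0 were called from D6 to D13.

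Of 12 genes upstream of Hox genes or in retinoic acid signalling, 7 were matched, and 2 rose and 2 fell in both comparisons with serum. Over all genes these shares were 5.91% and 3.9% by D6, and 7.45% and 6.01% by D13. Cdx1, a homeobox activator of Hox genes, was under 1 CPM in both D0 samples, so that its direction was fixed by the table. It had a log2 fold change of 5.11 ± 0.70 by D6 (limma adjusted p = 0.0010) and 4.18 by D13 (adjusted p = 0.0019). Stra8, a germ cell gene that responds to retinoic acid, had values of 2.75 (adjusted p = 0.0030) and 3.01 (adjusted p = 0.0013). The retinoic acid receptor Rarg had values of -2.12 (limma adjusted p = 0.00060) and -3.49 (adjusted p = 4.1e-05). Crabp2, which binds retinoic acid in the cell, had values of -2.41 (limma adjusted p = 0.024) and -2.25 (adjusted p = 0.020). Genes of this list thus moved in both directions, and 0 were called from D6 to D13.

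All 27 Polycomb and Trithorax genes were matched. Of them 2 rose and 0 fell by D6, and 2 rose and 1 fell by D13. Over all genes 5.91% rose and 3.9% fell by D6, and 7.45% rose and 6.01% fell by D13. Cbx8, which reads the mark that Polycomb leaves on histone H3, had a log2 fold change of 2.08 ± 0.48 by D6 (limma adjusted p = 0.014) and 2.05 by D13 (adjusted p = 0.0095). Jarid2, which brings the Polycomb complex to its targets, had a log2 fold change of -1.69 by D6 (limma adjusted p = 0.00064) and -2.43 by D13 (adjusted p = 7.3e-05). The median of the list was 0.07 by D6 and -0.29 by D13, beside -0.01 over all genes, and 0 were called from D6 to D13. None of the 11 Hox-cluster noncoding RNAs on a further list was matched by name, and they were not analysed here.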

How the data were processed

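RNA-seq libraries of wild-type J1 ES cells came from D0 (serum), D6 and D13 (2i+vitC), 2 replicates a day. Libraries were made with a stranded mRNA kit. The authors mapped reads onto mm10 with TopHat2 2.0.6 and RefSeq genes, counted them with HTSeq 0.6.1, mapped transposon reads with Bowtie 1.0.0, applied TMM normalization to both tables together and deposited log2 CPM values made with voom. The deposited log2 values cover 12626 genes and 302 transposon families. Every value of a gene, taken off the log scale and divided by what 1 read is worth in its sample, came out whole after subtraction of 0.5, which gave the reads. The strand setting of the counting is not given in the sources used here, and gene names in the files hold no capital G, which touches none of the 18 genes.

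The design foresaw limma on the deposited values, and counts were not used. A linear model with a mean per day was fitted to all 6 samples with limma 3.58.1 (R 4.3.3), with a mean-variance trend and no replicate block, with Benjamini-Hochberg adjustment over 12928 rows. Calls needed a change above 4-fold and an adjusted p below 0.05. Simulated data served to test the fit. With 2 replicates a day an exact test of a single gene cannot reach the threshold, and an SD rests on 2 values. The interval of a ratio of reads is an exact 95% interval and covers counting error only.

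Genes were matched by name. The 18 genes and the lists were chosen with earlier results of these data known, and the list counts support nothing on their own. Of the 18 genes, 16 are described by name, and some genes of the set and of the lists are not reported here. Of each list, up to 3 called genes with the largest log2 fold change in a comparison are named, with their values in the other comparison with serum. Positions are from GENCODE vM21 on GRCm38 and promoter windows from RefSeq on GRCm38.p6. Other steps used Python 3.11.15, numpy 2.4.6, pandas 2.3.3 and scipy 1.17.1. Alternatives were a minimum of 10 reads in 2 samples, a fit limited to the pair of days compared, a replicate block, each sample left out, voom weights rebuilt from reads, no trend, a 2-fold minimum, an adjusted p under 0.01, adjustment over genes only, median centring, a level threshold of 0.5 CPM and the longest transcript as length. When a day is left with 1 sample, that sample is assumed to vary like the others.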

Additional observations from a re-analysis of the deposited data

How the results depend on the processing

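The 7 genes called higher from D0 to D6, and the 8 called higher and 1 called lower from D0 to D13, gave the same counts with voom weights, with a filter on reads, with only the 2 days compared, with adjustment over genes only and with the replicate number as a block. With the replicate block these were 7, 8 and 1, and 0 from D6 to D13. The block lowered the limma adjusted p of the 7 genes called higher from D0 to D6, as in Hoxb13, with 0.00050 in place of 0.0090. Replicate 1 minus replicate 2 had an r over genes of -0.13 for D0 with D6, 0.33 for D6 with D13 and 0.14 for D0 with D13. Same-numbered samples of D6 and D13 thus deviated together in part, and those of D0 and D6 did not. Whether the numbers mark a pairing is not given in the sources used here. Centring on the median moved samples by at most 0.032 log2 units.

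A 2-fold minimum gave 2 genes called lower from D0 to D6 in place of 0, and 3 from D0 to D13 in place of 1. Leaving out single samples gave 0 to 1 called lower from D0 to D6 and 0 to 2 from D0 to D13, where Meis3 was lost without D0 replicate 1 or D13 replicate 2, and Nkx2-9 was added without D0 replicate 2. It gave 6 to 9 called higher from D0 to D6 and 7 to 9 from D0 to D13. Under 0.5 CPM in place of 1 CPM, 0 genes were low at D6 and 0 at D13. With the longest transcript the median level at D6 was 1.19 in place of 1.08 CPM per kb.

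The sign of small differences changed when single samples were left out. From D0 to D6 the range of Hoxd13 was -1.48 to 0.60. From D6 to D13 it was -0.13 to 0.18 for Hoxc12, -0.49 to 0.24 for Meis1, -0.73 to 0.84 for Nkx2-9 and -0.89 to 0.21 for Nkx6-2. From D0 to D13 it was -1.0 to 1.07 for Hoxd13. None of these was called, and the cause was not tested. With 2 replicates a day and few reads at D0, the size of the differences of Hoxc12, Hoxc4, Hoxd9 and Hoxb13 is the least certain.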

Other observations

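Homeobox genes outside the named families were also listed, and 16 of 63 were matched. From D0 to D6 8 rose and 2 fell, from D6 to D13 0 rose and 1 fell, and from D0 to D13 6 rose and 2 fell. Over all genes 5.91% rose and 3.9% fell by D6, 0.388% and 0.697% from D6 to D13, and 7.45% and 6.01% by D13. Cdx1, Otx1, Pou3f2 and Vax2 were under 1 CPM in both D0 samples and had to be higher in 2i+vitC to be analysed, and they are 4 of the 8 genes that rose by D6 and 4 of the 6 that rose by D13. These 4 are named for their level at D0, chosen after their values were seen. The median log2 fold change was 1.60 by D6 and 1.06 by D13, beside -0.01 over all genes, and rests in part on these 4 genes. Pou3f1, a POU factor of the primed epiblast, stood at a log2 CPM of 5.91 and 4.44 in serum, -1.57 and -0.72 on day 6, and 0.53 and -0.69 on day 13. Both serum samples lay far above all others, with a log2 fold change of -6.32 ± 0.61 by D6 (limma adjusted p = 0.00018) and -5.25 by D13 (adjusted p = 0.00029). Hesx1, a repressor that acts in forebrain and pituitary, stood at a log2 CPM of -0.12 and 0.10 in serum, 4.17 and 3.95 on day 6, and 4.54 and 4.18 on day 13. It was higher in all 2i+vitC samples, by 4.07 ± 0.30 at D6 (limma adjusted p = 5.7e-05) and 4.37 at D13. Cdx1, at 5.11 by D6, lay between these genes in the size of its difference.

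Of 43 other developmental regulators that carry both active and Polycomb marks in ES cells, 12 were matched. From D0 to D6 0 rose and 2 fell, from D6 to D13 1 rose and 0 fell, and from D0 to D13 0 rose and 1 fell. The shares over all genes were 5.91% and 3.9%, then 0.388% and 0.697%, then 7.45% and 6.01%, in the same order. The median was -0.89 by D6 and -0.02 by D13, beside the same -0.01 over all genes. Sox3, a neural progenitor gene, had a log2 fold change of -3.12 ± 0.58 by D6 (limma adjusted p = 0.0048) and -0.79 by D13 (adjusted p = 0.30), with a log2 CPM of 1.89 and 0.85 at D13 against -1.57 and -0.33 at D6. Neurod1, a neuronal factor, had values of -2.55 ± 0.66 by D6 (limma adjusted p = 0.023) and -2.68 by D13 (adjusted p = 0.012). Neurog3, which acts in the endocrine pancreas, had a log2 fold change of 2.05 ± 0.44 from D6 to D13 (limma adjusted p = 0.041).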
